A study of Mus musculus with 8 samples.

Results

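The genes that arm and mark natural killer (NK) cells and cytotoxic T cells were measured in colonic tumors of wild-type (WT) mice and of mice lacking the transporter MDR1A (MDR1A KO). The set held 10 genes chosen by symbol, Gzma, Gzmb, Gzmk, Prf1, Nkg7, Klrd1, Klrk1, Ncr1, Eomes and Tbx21, out of 22180 genes on the array that had a probe set annotated with 1 symbol only. Each gene was read by its single probe set of 1 symbol, and all 10 were found. The rule for choosing them used no measured difference between genotypes, but they were chosen with earlier results of these data known.

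The tumors came from male FVB/N mice that received azoxymethane (AOM), a colon carcinogen, once at 10 mg/kg at 6 weeks of age, together with 3 cycles of 7 days of 2.5% dextran sodium sulfate (DSS), which injures the colonic epithelium, begun on days 0, 21 and 42. Tumors were taken on day 84. The paper detected no invasive growth or adenocarcinoma in these genotypes, and the histology of the arrayed tumors was not examined here. The groups were 4 WT and 4 MDR1A KO tumors, 1 tumor per mouse, each on its own Affymetrix Mouse Gene 2.0 ST array. The knockout was present in every cell of the mouse, so tumor cells and infiltrating immune cells lacked the transporter alike, and tissue without AOM and DSS was not analysed here. RNA was prepared with 1 of 2 kits, and the labels do not tie a kit to a tumor.

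Cytotoxic lymphocytes kill by releasing granules at the contact with a target cell. Perforin opens the target membrane and granzymes, which are serine proteases, enter and trigger cell death. NK cells decide whether to release them by adding up signals from activating and inhibitory receptors, and the T-box factors T-bet and Eomes switch on much of this program in NK cells and CD8 T cells. In a piece of whole tumor, fewer such cells and less RNA per cell cannot be told apart.

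Stretches upstream of 5 of the genes are shown because the factors measured here, T-bet, Eomes and the RUNX family, bind DNA words that can be looked for in them. RefSeq windows from GRCm38.p6, reaching from 250 bases before to 50 bases after the start of transcription, were found for 9 of the 10 genes. Bases upstream of the annotated gene are printed 5′ to 3′ on the gene's own strand, all 250 before the start except in Klrk1, where the annotated gene reaches into the window and only the 211 bases farthest from the start are shown, for Gzma at chr13:113100982-113101231 (minus), Gzmb at chr14:56262335-56262584 (minus), Klrk1 at chr6:129623904-129624114 (minus), Gzmk at chr13:113180966-113181215 (minus) and Nkg7 at chr7:43436888-43437137 (plus). Capitals mark a match to TGTGGTT (RUNX), GGTGTGA (T-box) or TGAGTCA (AP-1), searched on both strands, so that the RUNX match of Gzma appears as its reverse complement.
Gzma: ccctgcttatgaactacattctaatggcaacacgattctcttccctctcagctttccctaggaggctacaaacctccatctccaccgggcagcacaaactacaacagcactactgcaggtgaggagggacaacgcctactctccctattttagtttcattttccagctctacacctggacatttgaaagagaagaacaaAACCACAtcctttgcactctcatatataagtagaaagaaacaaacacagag
Gzmb: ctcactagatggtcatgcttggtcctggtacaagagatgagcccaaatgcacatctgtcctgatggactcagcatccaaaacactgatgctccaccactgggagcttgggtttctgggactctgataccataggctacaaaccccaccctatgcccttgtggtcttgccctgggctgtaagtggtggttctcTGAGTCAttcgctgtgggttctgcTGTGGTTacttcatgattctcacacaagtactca
Klrk1: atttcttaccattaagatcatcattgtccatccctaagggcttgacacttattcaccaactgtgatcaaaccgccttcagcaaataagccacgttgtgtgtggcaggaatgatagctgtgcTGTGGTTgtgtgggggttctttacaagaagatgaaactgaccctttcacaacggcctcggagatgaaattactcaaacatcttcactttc
Gzmk: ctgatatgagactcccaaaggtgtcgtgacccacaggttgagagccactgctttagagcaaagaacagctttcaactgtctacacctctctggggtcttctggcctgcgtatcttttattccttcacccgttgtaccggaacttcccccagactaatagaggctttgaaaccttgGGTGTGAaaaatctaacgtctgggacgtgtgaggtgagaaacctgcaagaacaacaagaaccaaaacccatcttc
Nkg7: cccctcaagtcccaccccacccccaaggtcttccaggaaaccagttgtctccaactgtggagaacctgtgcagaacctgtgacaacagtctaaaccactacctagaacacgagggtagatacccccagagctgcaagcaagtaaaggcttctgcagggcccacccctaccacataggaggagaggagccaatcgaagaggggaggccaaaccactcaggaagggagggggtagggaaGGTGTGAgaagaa

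Of the 9 genes with a window, 4 held the RUNX word, Gzma, Gzmb, Klrk1 and Ncr1, as did 5.27% of all 32817 windows. The T-box word lay in 2 of 9, Gzmk and Nkg7, and in 3.98% of windows. The AP-1 word lay in 2 of 9, Gzmb and Klrk1, and in 5.2% of windows. In Klrk1 it lay on the reverse strand at position 17, after the start, and so outside the printed stretch. Genes and windows are different units, since Ncr1 had more than 1 window, and enrichment was not tested. Only stretches with a match are printed, and the windows of Prf1, Eomes and Tbx21 held none of these words. In Gzmb the AP-1 word began at position −58 and the RUNX word at position −34, counted from the start. A match describes the letters only and is not a measured binding site.

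None of the 10 genes separated the genotypes. At an unadjusted p under 0.05 in limma, 0 of 10 were called, where 6.4% of all 25341 named probe sets were, and 0 of 10 also changed by at least 2-fold at that p, where 0.241% did. After Benjamini-Hochberg adjustment over all named probe sets 0 of 10 passed, where 0.0158% did, with adjusted p from 0.873 to 0.997 (limma). The WT and MDR1A KO ranges overlapped for all 10 genes, while the groups were apart for 3.72% of named probe sets. The mean was higher in MDR1A KO for 6 genes and lower for 4, with a median log2 fold change of 0.05 against 0.00 over all named probe sets. The 95% interval lay within 2-fold in either direction for 10 of 10 genes and within 1.5-fold for 6. These intervals bound array signal, which moves least with RNA where signal is low, as for Gzma, Klrk1, Ncr1 and Eomes.

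**Figure D1:**
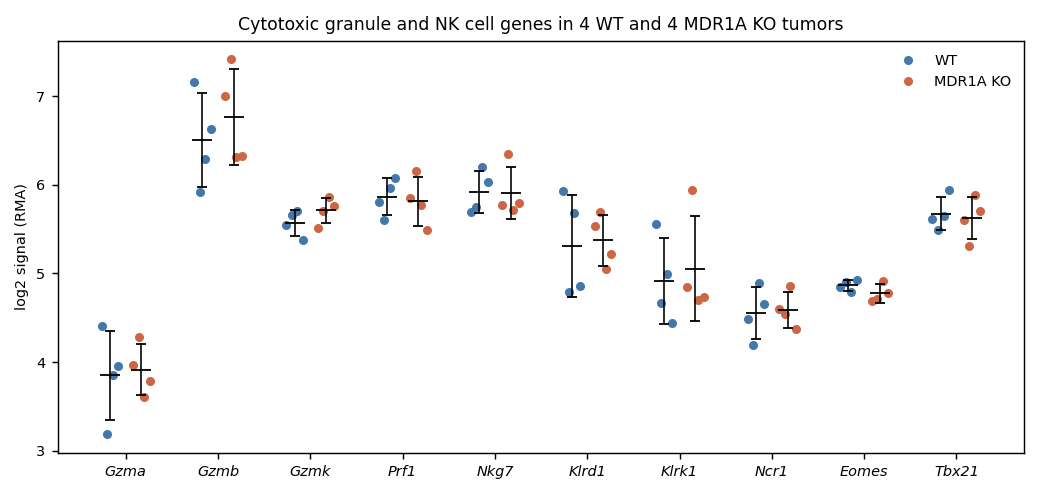
Log2 RMA signal of the 10 genes in the 4 WT and 4 MDR1A KO tumors. Each point is 1 tumor, the long bar is the group mean and the whiskers are the SD. The groups overlap for every gene, and Gzmb, Gzma, Klrd1 and Klrk1 spread most.

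Among the granule proteases, Gzmb encodes granzyme B, which cleaves caspases and their targets. Its log2 signal was 7.16, 5.92, 6.30 and 6.63 in WT replicates 1 to 4 and 7.00, 7.41, 6.31 and 6.32 in MDR1A KO replicates 1 to 4. The highest tumor was an MDR1A KO tumor and the lowest a WT tumor, and the other 6 were interleaved. The means were 6.50 ± 0.53 and 6.76 ± 0.54 (SD, n = 4 each), a log2 fold change of 0.26 (SE 0.31, 95% interval −0.44 to 0.96), with p = 0.543 in a two-sided exact permutation test. The change was 0.04 without MDR1A KO replicate 2 and 0.48 without WT replicate 1, with neither called. That exact permutation test has 70 arrangements and cannot go below p = 0.0286.

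Gzma, granzyme A, a protease of NK and T cell granules with a different cleavage preference, was dimmer. It read 4.41, 3.19, 3.86 and 3.96 in the WT tumors and 3.97, 4.28, 3.61 and 3.79 in the MDR1A KO tumors. WT tumors held both the highest and the lowest value. The log2 fold change was 0.06 (SE 0.24, 95% interval −0.48 to 0.61; exact permutation p = 0.914). Gzma was one of 4 genes, with Klrk1, Ncr1 and Eomes, that were dim, meaning a mean log2 signal of at most 5.06, where a change in RNA moves array signal least.

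Gzmk, granzyme K, is typical of memory-like CD8 T cells. Its values of 5.54, 5.66, 5.71 and 5.37 in WT and 5.52, 5.71, 5.86 and 5.76 in MDR1A KO tumors stayed close together. Its unadjusted p of 0.224 (limma) was the smallest of the 10 genes. The log2 fold change was 0.14 (SE 0.11, 95% interval −0.10 to 0.38), and the exact permutation p was 0.229.

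Prf1 encodes perforin, the pore-forming protein. It measured 5.81, 5.60, 5.96 and 6.08 in the WT tumors and 5.85, 6.16, 5.77 and 5.49 in the MDR1A KO tumors. Both the highest and the lowest tumor were MDR1A KO. Prf1 had a log2 fold change of −0.05 (SE 0.15, 95% interval −0.40 to 0.30; exact permutation p = 0.771).

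Nkg7 encodes a membrane protein of cytotoxic granules that is needed for efficient granule release. It read 5.70, 5.75, 6.20 and 6.03 in WT and 5.78, 6.34, 5.71 and 5.80 in MDR1A KO tumors. MDR1A KO replicate 2 stood above its group. For Nkg7 the log2 fold change came to −0.01 (SE 0.17, 95% interval −0.38 to 0.36; exact permutation p = 0.971).

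**Figure D2:**
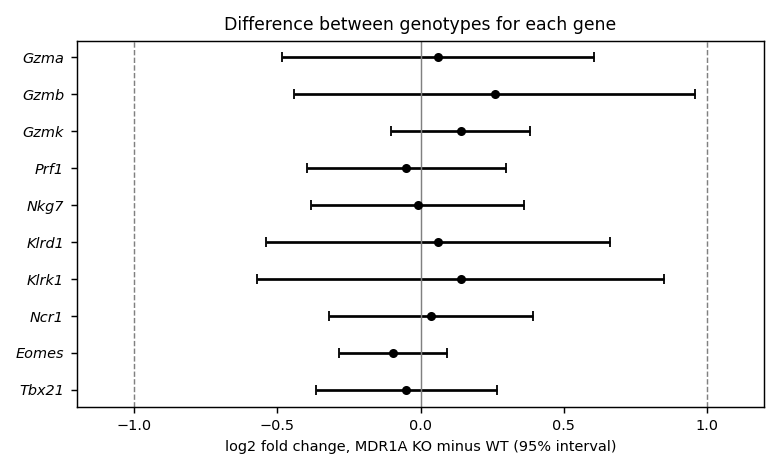
Log2 fold change of MDR1A KO over WT for the 10 genes, as points with 95% intervals from limma. Dashed lines mark 2-fold in either direction; every interval crosses 0 and lies inside the dashed lines, the widest upward reach being 0.96 for Gzmb.

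Of the receptors, Klrk1 encodes NKG2D, an activating receptor for stress-induced ligands. Its values were 5.56, 4.67, 4.99 and 4.44 in WT and 4.84, 5.94, 4.70 and 4.73 in MDR1A KO tumors. MDR1A KO replicate 2 and WT replicate 1 stood above the other 6. The log2 fold change was 0.14 (SE 0.32, 95% interval −0.57 to 0.85; exact permutation p = 0.629), and it ranged from −0.16 without MDR1A KO replicate 2 to 0.35 without WT replicate 1, with neither called.

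Klrd1 encodes CD94, the partner chain of the NKG2 receptors that read the nonclassical MHC molecule Qa-1. It measured 5.93, 4.79, 5.68 and 4.86 in WT and 5.54, 5.69, 5.05 and 5.22 in MDR1A KO tumors. The WT tumors fell into a high and a low pair, and the MDR1A KO tumors lay inside the WT range. Klrd1 had a log2 fold change of 0.06 (SE 0.27, 95% interval −0.54 to 0.66; exact permutation p = 0.829).

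Ncr1 encodes NKp46, an activating receptor that marks NK cells and some related innate lymphoid cells. Its signal was 4.49, 4.19, 4.89 and 4.66 in WT and 4.60, 4.54, 4.86 and 4.37 in MDR1A KO tumors. The MDR1A KO tumors lay inside the WT range. For Ncr1 the log2 fold change was 0.04 (SE 0.16, 95% interval −0.32 to 0.39; exact permutation p = 0.857).

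Of the T-box genes, Eomes varied least of the 10 genes, with a 1.18-fold range over the 8 tumors. It read 4.85, 4.91, 4.79 and 4.93 in WT and 4.69, 4.71, 4.92 and 4.78 in MDR1A KO tumors. Its log2 fold change of −0.09 (SE 0.08, 95% interval −0.28 to 0.09) had the smallest exact permutation p of the 10 genes, 0.143. Tbx21, which encodes T-bet, the driver of the interferon-gamma program, read 5.62, 5.49, 5.64 and 5.94 in WT and 5.60, 5.31, 5.89 and 5.70 in MDR1A KO tumors. The groups covered nearly the same span. The log2 fold change was −0.05 (SE 0.14, 95% interval −0.37 to 0.27; exact permutation p = 0.80).

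The residual SD within genotypes was larger than the difference between genotypes for every gene but Eomes (0.0859 against −0.09), and for Gzmk the values were close (0.147 and 0.14). This residual SD of the 10 genes ran from 0.0859 to 0.542 on the log2 scale and was above 0.171, the median of all named probe sets, for 8 of them. Over the 8 tumors the signal ranged 2.83-fold for Klrk1, 2.81-fold for Gzmb, 2.33-fold for Gzma and 2.20-fold for Klrd1, and less than 2-fold for the other 6 genes. WT replicate 2 was the lowest tumor for 4 genes and MDR1A KO replicate 2 the highest for 4. The mean log2 signal of the 10 genes was 5.51, 5.02, 5.40 and 5.29 in the WT tumors and 5.34, 5.61, 5.27 and 5.20 in the MDR1A KO tumors. That is 5.30 ± 0.21 against 5.35 ± 0.18 (SD, n = 4 each), a difference of 0.05 that was −0.05 without WT replicate 2, −0.04 without MDR1A KO replicate 2 and at most 0.12 with another tumor left out.

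**Figure D3:**
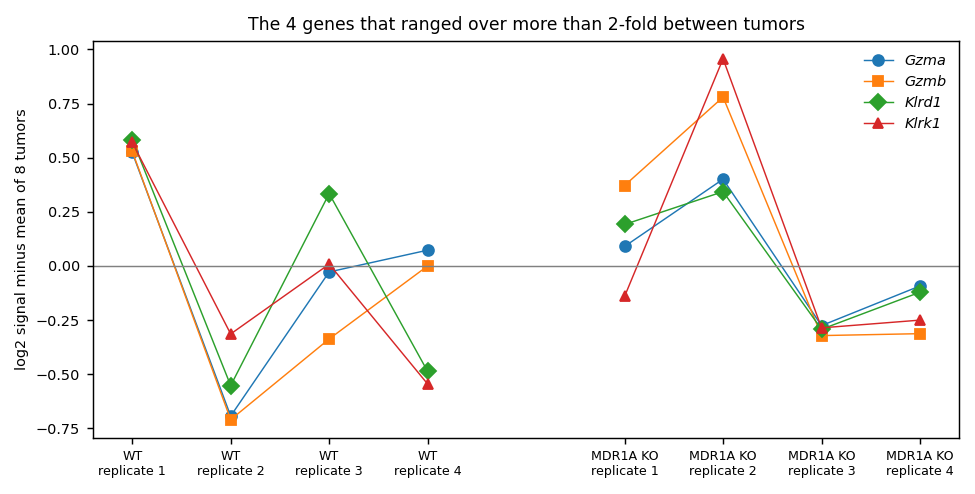
Log2 signal of Gzma, Gzmb, Klrd1 and Klrk1 in each tumor, minus that gene's mean over the 8 tumors. All 4 genes are high in WT replicate 1, low in WT replicate 2 and high in MDR1A KO replicate 2; lines join points for reading only, since replicates have no order.

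Pairs of the genes differed in how far they moved together across the 8 tumors, given as a description. Of the 45 pairs, 26 correlated above 0 and 19 below, with a median Pearson's r of 0.13. Gzma and Gzmb had the highest Pearson's r (r = 0.91, Spearman's rho = 0.90, and r = 0.90 without the 2 tumors farthest from the median of 1 gene of the pair). Klrk1 and Klrd1, both in the NK gene complex, had r = 0.79 and rho = 0.95 (r = 0.75 without 2 tumors). These 2 tumors were the farthest for Klrd1, so MDR1A KO replicate 2, the highest for Klrk1, stayed in. Nkg7 and Prf1 had r = 0.76 and rho = 0.64 (r = 0.74 without 2 tumors). The r of 0.76 between Klrk1 and Gzmb rested on 2 tumors and was 0.01 without them. Tbx21 ran against Klrk1 (r = −0.73, rho = −0.57, and r = −0.56 without 2 tumors) and with Eomes (r = 0.61, rho = 0.62, and r = 0.39 without 2 tumors).

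Outside the set, the profiles most like the mean centred profile of the 10 genes, by Pearson's r over 8 tumors among 18747 genes, were those of Olfr357 (r = 0.97), Flcn and Ptger2 (0.95 each), Stat4 (0.95), Adgrg3 (0.94) and Ifit1 (0.93). Stat4, which carries the IL-12 signal, spanned 5.57 in WT replicate 2 to 7.08 in MDR1A KO replicate 2. Olfr357, an olfactory receptor gene, was nearly flat, between 2.70 and 2.92.

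None of the genes of the wider cytotoxic machinery passed after adjustment, and the calls below are at an unadjusted p under 0.05, which 6.4% of named probe sets met. Of 6 other granzyme genes 0 passed, and Gzmd, Gzmg and Gzmn are near-identical copies whose probe sets may share signal. Gzmd had a log2 fold change of 0.52 (SE 0.35), Gzmg 0.11 (SE 0.20), Gzmn −0.25 (SE 0.17) and Gzmm −0.18 (SE 0.11). Of 10 genes for granule loading and release 0 passed. Ctsc, cathepsin C, which activates granzymes, had 0.24 (SE 0.12), Cst7, which encodes an inhibitor of cathepsins, 0.25 (SE 0.13), Rab27a −0.16 (SE 0.15) and Stxbp2 0.12 (SE 0.09).

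Of 5 Serpinb genes listed as granzyme inhibitors, 2 gave lower calls, where 2.74% of named probe sets were lower at that p. Neither call was for Serpinb9, and a change in granzyme inhibition was not tested. Serpinb6a read 6.89 to 7.03 in WT and 6.54 to 6.76 in MDR1A KO tumors, a log2 fold change of −0.25 (SE 0.08; exact permutation p = 0.0286). Serpinb1a, which encodes an inhibitor of neutrophil serine proteases, read 10.49 to 10.66 and 9.99 to 10.37, a change of −0.33 (SE 0.10; exact permutation p = 0.0286). The groups did not overlap for either gene, and the adjusted p was 0.708 and 0.693 (limma). Serpinb9, the inhibitor of granzyme B, had 0.24 (SE 0.20) and Serpinb6b 0.25 (SE 0.16).

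Of 25 other genes listed as NK receptors and adaptors, 19 were measured. Of these 19, 2 passed that p upward in MDR1A KO tumors and 3 downward, where 3.66% and 2.74% of named probe sets did. Klrg1, an inhibitory receptor of mature NK and effector T cells, read 5.59 to 6.60 in WT and 6.41 to 7.09 in MDR1A KO tumors, a log2 fold change of 0.87 (SE 0.23; exact permutation p = 0.057; limma adjusted p = 0.605). Klra2, of the Ly49 family, read 5.03 to 5.15 and 5.27 to 5.90, a change of 0.47 (SE 0.13). Which cells carried the Klra2 signal was not tested, and 5 of 7 macrophage markers were also higher at that p. The groups overlapped for Klrg1 and were apart for Klra2.

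The lower calls were the NKG2 chains that pair with CD94. Klrc2 read 2.25 to 2.91 in WT and 2.09 to 2.12 in MDR1A KO tumors, a log2 fold change of −0.53 (SE 0.13; exact permutation p = 0.0286; limma adjusted p = 0.544). Klrc1 had −0.23 (SE 0.10) and Klrc3, singled out after its values were seen, −0.25 (SE 0.11). All 3 were dim, and both the Klrc and the Klra genes belong to families of related sequence, whose probe sets may not tell members apart. The 5 calls of this group became 3 without MDR1A KO replicate 1, 3 or 4 and 6 without WT replicate 3. Those of Klrg1, Klra2 and Klrc2 held whichever tumor was left out, while that of Klrc1 held only without WT replicate 2 or 4 and that of Klrc3 only without WT replicate 3. The calls of Klrc1 and Klrc3 were also lost with all probe sets tested, with a trended robust variance and with renewed quantile normalization. Klrb1c, the NK1.1 antigen gene, was also dim, at 3.69 to 4.35 over all tumors, with a change of 0.08 (SE 0.14).

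**Figure D4:**
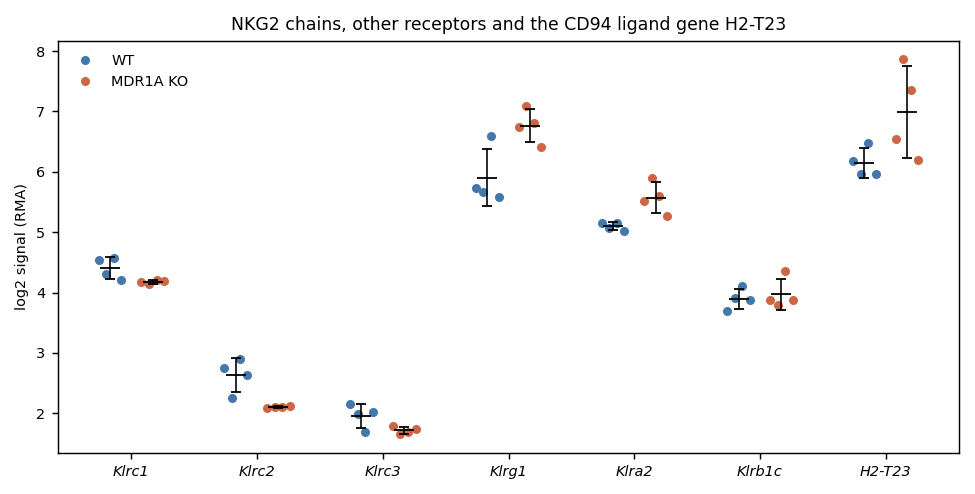
Log2 RMA signal of 6 other genes listed as NK receptors and of H2-T23 in each tumor, with group mean and SD. Klrg1, Klra2 and H2-T23 have higher means in MDR1A KO tumors, and Klrc1, Klrc2 and Klrc3 lie low on the scale with MDR1A KO values in a narrow band.

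Of 10 listed ligand genes of NKG2D and CD94, 4 were measured, and 1 of these was higher at that p. H2-T23, which encodes Qa-1, the CD94 ligand, read 5.96 to 6.48 in WT and 6.20 to 7.86 in MDR1A KO tumors, a log2 fold change of 0.84 (SE 0.33; exact permutation p = 0.057; limma adjusted p = 0.756). Its call was lost when MDR1A KO replicate 2 or 3, or WT replicate 1, 2 or 4, was left out. The NKG2D ligand genes that were measured had log2 fold changes of 0.41 (SE 0.37) for H60c, −0.10 (SE 0.20) for H60b and 0.01 (SE 0.17) for Ulbp1.

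Upstream regulators gave 0 calls among 10 transcription factor genes and 0 among 11 genes of IL-15, IL-12 and IL-18 signaling. Nfil3, needed for NK cell development, had −0.28 (SE 0.19), Prdm1 −0.15 (SE 0.17), Runx3 −0.09 (SE 0.14) and Id2 −0.08 (SE 0.10). Il15, which sustains NK cells, had 0.28 (SE 0.20), its receptor chain Il2rb 0.30 (SE 0.26), Il21r 0.29 (SE 0.26) and Il12rb2 0.17 (SE 0.12). With 1 tumor left out, these signaling genes, the other granzymes and the granule genes each gave at most 1 call.

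Of 10 effector cytokine and death ligand genes, 2 were higher at that p. Tnfsf10, which encodes TRAIL, read 6.39 to 7.496 in WT and 7.49 to 8.90 in MDR1A KO tumors, a log2 fold change of 1.23 (SE 0.31; limma adjusted p = 0.555), and Tnf had 0.62 (SE 0.20; limma adjusted p = 0.708). Ifng, the main cytokine of NK cells and Th1 cells, had 0.10 (SE 0.14, 95% interval −0.23 to 0.42) and the chemokine gene Xcl1 0.15 (SE 0.14). TRAIL and TNF are also made by macrophages and other cells.

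Markers of other cells were read beside these values. Of 10 T cell markers, 1 was higher at that p, Cd3g at 0.99 (SE 0.40). Cd3e had 0.62 (SE 0.33), Cd4 0.50 (SE 0.37), Cd5 0.25 (SE 0.16), Cd8a 0.03 (SE 0.13) and Zap70 −0.12 (SE 0.08). Leaving out WT replicate 3 raised the T cell count to 5, and leaving out WT replicate 2 or 4 or MDR1A KO replicate 1 or 2 brought it to 0. Mean T cell marker signal was lowest in WT replicate 2, at 5.59, and highest in MDR1A KO replicate 2, at 6.66. These tumors were most often lowest and highest for the cytotoxic genes. The match was not particular to T cell markers. The mean of the other NK receptor genes and that of the effector cytokine genes had the same lowest and highest tumors. WT replicate 2 was also lowest for mean macrophage, mast cell, B cell and plasma cell marker signal. The part of T cell marker signal in the spread of the cytotoxic genes was not tested. Innate lymphoid type 3 markers gave 0 calls of 5, with log2 fold changes of 0.26 (SE 0.27) for Il23r, 0.06 (SE 0.10) for Il22, 0.13 (SE 0.47) for Il7r and −0.23 (SE 0.20) for Il1r1.

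At an unadjusted p under 0.05, macrophage markers were higher for 5 of 7 genes, where 3.66% of named probe sets were, among them Adgre1 at 0.67 (SE 0.14), C1qb at 0.51 (SE 0.18), C1qa at 0.45 (SE 0.16) and Lyz2 at 0.35 (SE 0.12), and mean marker signal was 8.69 to 9.33 in WT and 9.26 to 9.45 in MDR1A KO tumors. All 7 macrophage, all 5 plasma cell and all 7 mast cell markers had the higher mean in MDR1A KO tumors. All 7 epithelial and all 5 neutrophil markers had the lower. Some of these differences were near 0, as for the plasma cell marker Sdc1 at 0.03 (SE 0.11) and the epithelial marker Epcam at −0.03 (SE 0.08). Plasma cell markers were higher at that p for 2 of 5 genes, Tnfrsf17 at 0.95 (SE 0.30) and Jchain at 0.92 (SE 0.38), and epithelial markers lower at that p for 2 of 7, where 2.74% of named probe sets were, Krt20 at −0.65 (SE 0.19) and Cdx2 at −0.65 (SE 0.26). Neutrophil, mast cell and B cell markers gave 0 calls of 5, 7 and 5. Leaving out 1 tumor moved these counts to 3 for macrophages without MDR1A KO replicate 1 or 2 or WT replicate 2 or 4 and to 6 without WT replicate 3, to 1 for plasma cells without MDR1A KO replicate 2 or 4 or WT replicate 2 and to 3 without MDR1A KO replicate 3 or WT replicate 3, to 1 for epithelium without MDR1A KO replicate 1 or 3 or WT replicate 4 and to 3 without WT replicate 1 or 3. Without WT replicate 4 there were 4 calls for mast cells and 1 for neutrophils, and the count came to 2 for B cells without WT replicate 3. Abcb1a, the targeted gene, read 8.69 to 9.46 in WT and 6.13 to 6.87 in MDR1A KO tumors, a log2 fold change of −2.67 (SE 0.20; limma adjusted p = 0.00599), with an adjusted p of 0.0599 without MDR1A KO replicate 3.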

How the data were processed

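Tumor RNA was hybridized to 8 arrays (4 WT, 4 MDR1A KO), grouped by the genotype in the sample labels. The deposited log2 values had been made by the authors with RMA in Affymetrix Expression Console (version 1.4), which corrects background, normalizes between arrays by quantiles and summarizes probes. Of 41345 probe sets, 25341 carried a gene symbol (23521 had 1 symbol and 1820 several), and array medians lay between 5.62 and 5.67. The platform annotation gave the symbols, and the number of arrays limits the precision.

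Genotypes were compared with limma (version 3.58.1, R 4.3.3) over all named probe sets, with Benjamini-Hochberg adjustment, and single genes by a two-sided exact permutation test (scipy 1.17.1). The script was tested on simulated data. Genotype was the only term in the fit, and the labels name no batch. Per gene, the 1-symbol probe set of highest mean was used. Counts are of measured genes, and some lists were not measured in full. These were other granzymes (6 of 7), NK receptors and adaptors (19 of 25), ligands (4 of 10) and transcription factors (10 of 12). The others were interleukin signaling (11 of 12), T cell (10 of 12), innate lymphoid type 3 (5 of 6) and B cell markers (5 of 6).

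The 10 genes and the other lists were chosen with earlier results of these data known. Named were all 10 genes, the 4 genes of smallest unadjusted p in each other list, Ifng, Cd3e, Cd8a, Cd4, Klrb1c and Abcb1a, and the 6 most alike genes; Klrc3 was added after its values were seen. Alternatives were array weights, centring or renewed quantile normalization, a dim filter, other probe set choices, a trended robust variance, a replicate block, the methods' t-test and leaving out each tumor.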

Additional observations from a re-analysis of the deposited data

Results flagged for a closer look

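In 17 of 158 groups of 4 tumors examined (79 genes), 1 tumor stood apart from the other 3 of its genotype. The rule marks about 1 group in 20 for independent, normally distributed values. Many of these genes were named for a small p and all share the same tumors, so that rate cannot judge the count. MDR1A KO replicate 2 stood above its group for Nkg7 (6.34, others 5.71 to 5.80), Klrk1 (5.94, others 4.70 to 4.84), Cst7 (6.30), H60c (6.69, others 4.83 to 5.004), Il21r (6.76) and Xcl1 (5.40). MDR1A KO replicate 1 was the lowest of its group for Gzmn (3.36), Nfil3 (6.63) and Mcpt2 (8.935). MDR1A KO replicate 3 was lowest for Serpinb1a (9.99) and highest for Klrb1c (4.35), and MDR1A KO replicate 4 was lowest for H60b (5.88). In the WT tumors, replicate 3 was highest for Klrg1 (6.60, others 5.59 to 5.73), replicate 4 for Il22 (1.94, others at 1.90) and replicate 1 for Il23r (5.01), while replicate 2 was lowest for Kit (7.20) and replicate 1 for Vil1 (10.27).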

How the results depend on the processing

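No member was called under any alternative run, the smallest unadjusted limma p being 0.0985 without MDR1A KO replicate 1. Directions near 0 turned with array weights for Nkg7 (0.0199), Ulbp1 (−0.011) and Cd79b (0.10), with centring on the array median, which moved the median of all genes to −0.04, for Ncr1 (−0.0053), Ulbp1 (−0.0283) and Cd8a (−0.0159), and with renewed quantile normalization for Ulbp1 (−0.0263). Leaving out 1 tumor turned the log2 fold change, over these ranges, for Gzma (−0.16 to 0.25), Prf1 (−0.16 to 0.0599), Nkg7 (−0.16 to 0.0827), Klrd1 (−0.11 to 0.27), Klrk1 (−0.16 to 0.35), Ncr1 (−0.0855 to 0.15), Tbx21 (−0.14 to 0.0557), Gzmg (−0.053 to 0.22), Klrb1c (−0.0479 to 0.15), Ulbp1 (−0.11 to 0.13), H60b (−0.31 to 0.0336), H60c (−0.0386 to 0.58), Prdm1 (−0.24 to 0.0206), Ifng (−0.0389 to 0.19), Cd8a (−0.0502 to 0.16), Il22 (−0.0349 to 0.11), Il7r (−0.20 to 0.59), S100a8 (−0.73 to 0.44), S100a9 (−0.75 to 0.24), Cxcr2 (−0.66 to 0.15), Ms4a1 (−0.83 to 0.61), Cd79a (−0.25 to 1.04), Cd79b (−0.35 to 0.50) and Blk (−0.11 to 0.34). Replicate numbers did not pair the tumors (same-number correlations 0.11, 0.02, −0.10 and 0.35); with the replicate block 0 members were called (smallest p 0.217, limma), 65 probe sets met the 2-fold criterion against 61, and 0 passed adjustment against 4. Abcb1a then had an adjusted p of 0.069, and by the methods' t-test 0.253. With every probe set tested, 136 met the 2-fold criterion, 36 by the methods' t-test and 123 without WT replicate 3. Unadjusted p rose above 0.05 for Klrc1 and Klrc3 with every probe set tested (0.0541 and 0.0559), a trended robust variance (0.0594 and 0.0506) and renewed quantile normalization (0.0703 and 0.066), for Klrc1 with the replicate block (0.061), and by the methods' t-test for Klrc3 (0.0558), H2-T23 (0.0786), C1qa (0.0503) and Cdx2 (0.0783). Cd3g and Jchain rose above it by the trended robust variance (0.0568 and 0.0761), the replicate block (0.0579 and 0.0691) and the methods' t-test (0.0912 and 0.0991). The cause was not tested. With 4 tumors per genotype and 4 of the 10 genes dim, a change inside the printed intervals could have been missed. Those intervals are not adjusted for the number of probe sets tested. Larger changes also failed adjustment, as for Tnfsf10 at 1.23 (limma adjusted p = 0.555).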

Other observations

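Some markers of other cell types spanned a wide range between tumors. Among mast cell genes, the protease genes Mcpt1 and Mcpt2 read 6.39 to 11.26 and 6.80 to 10.84 in WT tumors, both highest in replicate 4, and 9.37 to 9.87 and 8.935 to 9.37 in MDR1A KO tumors. The log2 fold changes were 1.46 (SE 0.86) for Mcpt1, 0.96 (SE 0.72) for Mcpt2, 0.53 (SE 0.34) for Cpa3 and 0.19 (SE 0.17) for Kit. Without WT replicate 4 they were 2.48 for Mcpt1, 1.82 for Mcpt2 and 0.86 for Cpa3, and without WT replicate 2 they were 0.85, 0.47 and 0.23, and 0.0096 for Kit. The B cell genes Ms4a1, Cd79a, Cd79b and Blk were highest in WT replicate 3, Ms4a1 at 8.71 against 4.38 in WT replicate 2. The neutrophil genes S100a8, S100a9, Cxcr2 and Ly6g were highest in WT replicate 1, S100a8 at 8.16 against 4.65 in WT replicate 4.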
